A study of Caenorhabditis elegans with 12 samples.

Results

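Gene expression was compared between eggs of the daf-16;daf-2;bcl-11 genotype and eggs of the daf-2 genotype, which are 8 of the 12 libraries sequenced in total, 4 for each genotype. The members of the comparison were taken from the genotype in the sample labels, and no measured value was used to choose them. Eggs of daf-16;daf-2;bcl-11 animals carried daf-16(mu86), daf-2(e1370) and bcl-11(bon125) and are called triple mutant eggs from here on, and eggs of daf-2 animals carried daf-2(e1370) alone, so that reduced insulin/IGF receptor function was shared by both. The other 4 libraries are labelled daf-2;bcl-11, with daf-2(e1370) and bcl-11(bon125), and their daf-16 level, given below, goes against that label. Animals had been grown at 20 °C on OP50-1 bacteria, eggs were released by bleaching, and the eggs spent 2 h at 27 °C ahead of RNA extraction. The mu86 allele is a deletion in daf-16, e1370 is a reduction-of-function allele of daf-2, and bon125 is described in the study's methods and text as a hypomorphic, frame-altering allele of bcl-11 that leaves the C2H2 zinc fingers in place. Eggs that carried daf-16(mu86) and daf-2(e1370) with an intact bcl-11 were not analysed here, so the effects of daf-16(mu86) and bcl-11(bon125) cannot be told apart in this comparison. In the labels each genotype has replicates 1 to 4, and the batch carries the replicate's number, so that each batch held 1 library of each genotype. No source used here says whether the 4 libraries came from separate cultures, and p-values then measure only the spread between these libraries. A library was made from a pool of eggs, and eggs of several embryonic stages can be in 1 pool.

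Insulin/IGF signaling in Caenorhabditis elegans runs from insulin-like peptides through the receptor DAF-2 and a kinase cascade to the FOXO transcription factor DAF-16. When the receptor is weak, DAF-16 enters nuclei and turns on genes for stress resistance, fat storage and dauer arrest, a larval diapause. BCL-11 is the nematode counterpart of the zinc finger proteins BCL11A and BCL11B, which in mammals act in blood and brain development and can be associated with the SWI/SNF chromatin remodeling complex. In the nematode embryo, maternal RNAs are followed by fate regulators that are made in the dividing blastomeres, and later by the genes of differentiated cells, such as those for muscle filaments, cilia, synapses and cuticle.

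Each gene had 1 regularized-log (rlog) value in each library, which is a normalized count on the log2 scale after weakly covered genes have been drawn towards their mean. The changes of weakly expressed genes are therefore understated, and the number of reads behind a value is unknown. A log2 fold change is the mean rlog value of the triple mutant minus that of daf-2. Genes were called when limma, fitted over all 25122 genes and 12 libraries, gave a Benjamini-Hochberg adjusted p-value below 0.05 and a fold change above 1.5 in either direction. The median rlog value of a library was between 5.77 and 5.95 in the triple mutant and between 6.36 and 6.50 in daf-2. Among the genes named below, far-3, spp-27, puf-3, hlh-1, ttn-1, ceh-16, cut-3, dpy-4, col-92, ptr-8, flp-11, flp-27, flp-1, che-11, lin-35, mix-1, jnk-1, sod-3, bar-1, fat-5, tre-5 and cyp-37B1 overlap a protein-coding gene on the opposite strand, and the library protocol did not keep the strand, so reads of such a pair cannot be told apart.

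A library stood apart from the rest of its genotype. In the 8 libraries the first principal component held 57.5% of the variance and separated the genotypes, with scores from 31.6 to 63.7 in the triple mutant and from -58.7 to -46.8 in daf-2. The second held 17.7%, with scores of -1.84, -26.7, -28.2 and 52.4 in replicates 1 to 4 of the triple mutant, against 26.6, -27.5, -22.4 and 27.7 in daf-2. Replicate 4 of the triple mutant thus lay at the far end of the second component, where replicates 1 and 4 of daf-2 were found as well. Several results that rest on that library are given below with and without it. The eggs expressed the markers chosen for embryonic tissues, of endoderm, intestine, muscle, pharynx, epidermis and neurons, with mean rlog values of at least 7.16 in the triple mutant and at least 7.28 in daf-2. Of 5 eggshell markers, perm-2 and perm-4, which are made by the mother for the eggshell, were near the bottom of the scale. They were at 2.68 and 3.93 in the triple mutant, against 3.01 and 4.06 in daf-2. For adult material, the 6 yolk protein genes of the adult intestine had mean values between 5.0 and 5.9 in the triple mutant libraries, against 5.1 to 6.2 in the daf-2 libraries, and the 42 sperm genes between 2.5 and 2.8 in the libraries of both genotypes. No gene of these lists was called (limma with Benjamini-Hochberg adjustment), and their part in the results was not tested.

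The mutated genes themselves were looked at before all others. daf-16 (chromosome I, 10750498 to 10776703 of WBcel235) had rlog values of 9.65, 9.77, 9.90 and 9.58 in triple mutant eggs, against 12.1, 12.3, 12.0 and 12.0 in daf-2 eggs. The groups did not overlap, for which a two-sided exact permutation test gives p = 0.0286, the smallest that 70 arrangements of 4 against 4 allow, and the log2 fold change was -2.39 (standard error 0.13, limma Benjamini-Hochberg adjusted p = 3.43e-08). bcl-11 (WBGene00017430, chromosome V, 6356025 to 6362997) had values of 9.32, 8.05, 9.70 and 9.34 in the triple mutant and of 10.2, 10.5, 9.61 and 10.3 in daf-2, so that the highest mutant library exceeded the lowest daf-2 library. Its log2 fold change was -1.05 (standard error 0.29, limma Benjamini-Hochberg adjusted p = 0.0132), and the call was lost when each library was centred on its median (-0.51) and in a model of only these 2 genotypes. The two-sided exact permutation test of bcl-11 gave p = 0.0571. daf-2 was not called, at 10.1 ± 0.14 in the triple mutant and 10.0 ± 0.24 in daf-2 (SD, n = 4 each). daf-16 was also low in the 4 libraries with the daf-2;bcl-11 label, with a mean of 9.52, against 9.72 in the triple mutant and 12.1 in daf-2, although their label names no daf-16 mutation. Their label may therefore be wrong, and they are called by it wherever they are used.

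Of 25122 genes tested, 5661 were called between the triple mutant and daf-2, which is 22.5% of all genes. Higher expression in the triple mutant was called for 1603 genes (6.38%) and lower expression for 4058 genes (16.2%). In 7491 genes (29.8%) the ranges of the genotypes were apart, and 4795 of the called genes were among them. The decreases were larger than the increases. The median log2 fold change was 0.70 for the genes called higher and -1.15 for those called lower, and at an absolute log2 fold change above 1 there were 90 genes higher and 2539 lower. No gene rose by more than 3 on the log2 scale, while 79 fell by more than 3. The balance of directions depended on the scaling between libraries. Centring each library on its median added 0.54 to every change, gave a median change of 0.52 over all genes in place of -0.01, and called 9434 genes higher and 2031 lower. Quantile normalization called 2276 higher and 2641 lower. Of the 5661 calls, 3634 were also made with centring and 3329 with quantile normalization, all in the same direction. Decreases beyond 0.54 therefore kept their sign under centring, and smaller ones did not.

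**Figure D1:**
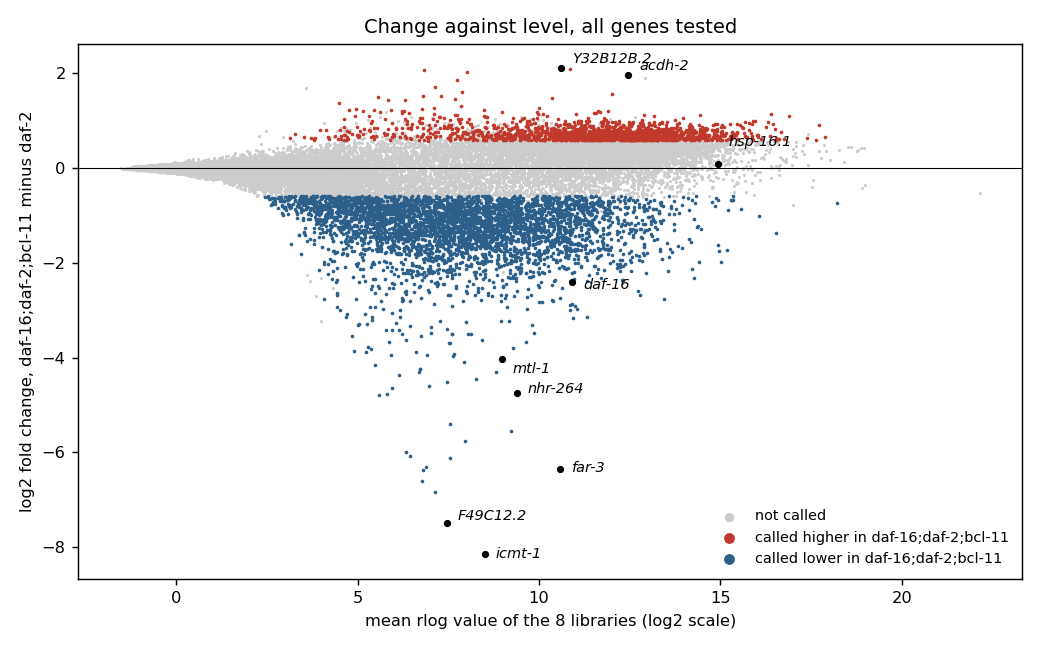
Log2 fold change of the triple mutant (daf-16;daf-2;bcl-11) over daf-2 (vertical axis) against the mean rlog value of the 8 libraries (horizontal axis, log2 scale), 1 point per gene, red where called higher, blue where called lower, grey where not called, with named genes in black. The increases stay below 2.2 on the log2 scale and lie mostly among strongly expressed genes, while the decreases reach -8.16 and lie at middle levels.

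Increases and decreases lay at different levels of expression. When all genes were split into 5 classes of equal size by their mean rlog value over the 12 libraries, the class with the highest means (11.2 to 21.8) held 994 genes called higher and 327 called lower, with a median log2 fold change of 0.37. The middle class (4.45 to 7.91) held 147 called higher and 1848 called lower, with a median of -0.40, a sign that centring turns round. By share, 19.8% of the highest class were called higher and 6.51% lower, and 2.93% and 36.8% of the middle class. The class between them (7.91 to 11.2) had 8.94% higher and 29.9% lower. The shares over all genes beside the lists below are not matched for level. In the lowest class (up to 1.56) no gene was called by limma with Benjamini-Hochberg adjustment. Chromosomes differed in the same way. On chromosomes I and III, 9.51% and 10.9% of genes were called higher and 12.6% and 12.9% lower, while on chromosomes V and X 3.36% and 3.72% were called higher and 18.3% and 20.2% lower. Of the 79 genes that fell by more than 3, 35 lay on chromosome V, 21 on chromosome IV and 3 on chromosome X. Of all 25122 genes tested, 5959 lay on chromosome V, 4078 on chromosome IV and 4085 on chromosome X. Among the 79 genes, 23 lay within 20 kb of another of them. Protein-coding genes made up most of the calls, with 1526 of 19179 higher and 3948 lower.

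The largest decreases were in genes of varied or unknown roles. icmt-1 (chromosome I, 4901918 to 4903264), which encodes an isoprenylcysteine carboxyl methyltransferase, an enzyme that modifies the end of prenylated proteins, had values of 4.10, 4.45, 4.11 and 5.07 in triple mutant eggs, against 12.8, 11.5, 11.8 and 14.2 in daf-2 eggs. This is a log2 fold change of -8.16 (standard error 0.45, limma Benjamini-Hochberg adjusted p = 4.67e-08), or 286-fold on the rlog scale. F49C12.2, which has no assigned role in the sources used, had values of 3.48, 3.88, 3.66 and 3.82 in the triple mutant, against 11.4, 11.1, 11.0 and 11.4 in daf-2 (-7.50, standard error 0.18, limma Benjamini-Hochberg adjusted p = 5.33e-12). In both genes the lowest daf-2 library lay more than 6 units above the highest triple mutant library. F49C12.4, which is close to it on chromosome IV, fell by 6.84 on the log2 scale, and of the 11 measured genes named after that stretch of the chromosome 6 were called lower, 5 of them by more than 3. H39E23.3 and D1086.9, neighbours on chromosome V between 14104270 and 14110051, fell by 6.62 and 6.32, and F56D6.9 on chromosome IV by 6.37.

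Several of the other large decreases were in genes for small secreted or lipid-binding proteins. far-3, which encodes a fatty acid and retinol binding protein, had values of 5.93, 8.35, 7.92 and 7.42 in the triple mutant, against 13.7, 13.3, 13.4 and 14.7 in daf-2 (-6.35, standard error 0.53, limma Benjamini-Hochberg adjusted p = 2.74e-06). The log2 fold change was -6.12 for cnc-11, a caenacin of a family of antimicrobial peptides, -6.08 for scl-13, of the SCP-like extracellular proteins, and -5.99 for spp-27, a saposin-like protein. In each of these genes the libraries of the genotypes were several units apart. The nuclear hormone receptor gene nhr-264 had values of 6.89, 7.36, 6.83 and 6.93 in the triple mutant and of 11.9, 11.4, 11.6 and 12.1 in daf-2, a log2 fold change of -4.75 (standard error 0.33, limma Benjamini-Hochberg adjusted p = 4.86e-07). Its family member nhr-267 fell by 3.94, to 4.94 ± 0.42 in the triple mutant, against 8.88 ± 0.60 in daf-2 (SD, n = 4 each).

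The largest increases reached 4.32-fold and included genes of fatty acid oxidation. Y32B12B.2 had values of 11.8, 11.6, 11.6 and 11.6 in triple mutant eggs, against 9.53, 9.85, 9.60 and 9.22 in daf-2 eggs (2.11, standard error 0.14, limma Benjamini-Hochberg adjusted p = 3.62e-07). ech-1.1, named for enoyl-CoA hydratase, had values of 11.5, 12.7, 12.1 and 11.3 in the triple mutant and of 10.2, 9.66, 9.74 and 9.63 in daf-2 (2.10, standard error 0.25, limma Benjamini-Hochberg adjusted p = 3.42e-05). acdh-2, named for acyl-CoA dehydrogenase, which acts one step before the hydratase in β-oxidation, had values of 13.1, 13.9, 13.5 and 13.3 in the triple mutant and of 11.7, 11.2, 11.3 and 11.7 in daf-2 (1.96, standard error 0.17, limma Benjamini-Hochberg adjusted p = 3.89e-06). Neither gene overlapped between the genotypes. Y39B6A.42, F53E10.5, the nuclear hormone receptor gene nhr-81 and F10D2.10 rose by 1.87, 1.71, 1.61 and 1.58, and 3 pseudogenes completed the list of the 10 largest increases. F53E10.5 rested in part on replicate 1 of daf-2, whose value of 4.90 compares with a mean of 6.74 for replicates 2 to 4, and remained called without it.

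Genes of the dividing embryo were higher in the triple mutant. Of 32 genes for the cell cycle and DNA replication, 27 rose and none fell (84.4%, against 6.38% of all genes), with a median log2 fold change of 0.81. pcn-1, the sliding clamp of DNA polymerase (PCNA), had values of 15.0, 15.0, 14.8 and 15.3 in the triple mutant and of 13.8, 13.8, 14.0 and 13.9 in daf-2 (1.13, standard error 0.13, limma Benjamini-Hochberg adjusted p = 3.04e-05). cyd-1 (cyclin D) and cki-2 (a cyclin-dependent kinase inhibitor) each rose by 1.00, so that an activator and an inhibitor of cell cycle entry both were higher. cdk-1, the kinase that drives mitosis, rose by 0.84. Of 37 genes for the spindle, kinetochore and cytokinesis, 23 rose and none fell, among them icp-1 (INCENP of the chromosomal passenger complex, 0.93) and ect-2 (the RhoGEF of the cleavage furrow, 0.94). The means of the cell cycle list were 13.9, 13.9, 13.7 and 14.2 in the triple mutant libraries and 13.1, 13.0, 13.2 and 13.2 in the daf-2 libraries, without overlap, and the median change was 0.82, 0.86, 0.48 and 1.00 within batches 1 to 4. These increases were close to the threshold, and with quantile normalization 11 of the 32 and 6 of the 37 genes were called higher, the cdk-1 call being lost.

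Chromatin regulators and the genes of other large nuclear and proteolytic complexes were higher to a similar degree. Of 11 genes of the DREAM complex and the synMuv B class, which repress cell cycle and germline genes, 10 rose with a median of 0.79. The Rb homolog lin-35 had values of 14.2, 13.6, 13.7 and 14.2 in the triple mutant and of 13.2, 13.0, 13.3 and 13.0 in daf-2 (0.81, standard error 0.14, limma Benjamini-Hochberg adjusted p = 0.000598), and lin-9 and the E2F homolog efl-1 rose by 0.93 and 0.89. Of 23 genes for NuRD, Polycomb and histone methylation, 14 rose and none fell, with the histone chaperone gene lin-53 at 0.91, the deacetylase gene hda-1 at 0.81 and the Mi-2 homolog let-418 at 0.59, just past the threshold and not called without replicate 2 of the triple mutant or without replicate 1 or 4 of daf-2. Of 12 measured genes listed for SWI/SNF, 7 rose, and the 1 that fell was the mutated gene bcl-11 itself. The actin-related subunit gene swsn-6 and phf-10 rose by 0.88 and 0.89. Dosage compensation and sex determination genes rose in 7 of 18 (38.9%, against 6.38% of all genes), with the X-signal element sex-1 at 0.85 and the condensin gene mix-1 at 0.70. In these lists the called genes were fewer with quantile normalization, at 3 higher for DREAM, 1 for NuRD and Polycomb, 1 for SWI/SNF and 1 for dosage compensation. The linker histone gene his-24 rose by 0.91 and the H2A gene his-35 fell by 0.81, a decrease that was not called with centring, and near-identical histone copies share reads.

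Nucleoporin genes (stem npp) had the largest share of higher genes of the 94 gene families with at least 20 members, at 16 of 26 (61.5%), with npp-4 at 0.95 and npp-18 at 0.86, and with quantile normalization 5 of the 26 were called higher. Of the families, 17 had more members higher than lower and 72 had more lower than higher. Of 33 proteasome subunit genes, 24 rose and none fell, with pbs-1, a subunit of the proteolytic core, at 12.3, 12.6, 12.2 and 12.9 in the triple mutant, against 11.7, 11.7, 11.6 and 11.6 in daf-2 (0.83, standard error 0.15, limma Benjamini-Hochberg adjusted p = 0.00074). The proteasome count rested on replicate 4 of the triple mutant, without which 9 of the 33 were called higher, and with quantile normalization it was 5. The 81 genes for cytosolic ribosomal proteins differed from these lists, with 1 called higher (6.38% of all genes were) and a median of 0.00, which became 0.54 with centring and -0.30 with quantile normalization.

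**Figure D2:**
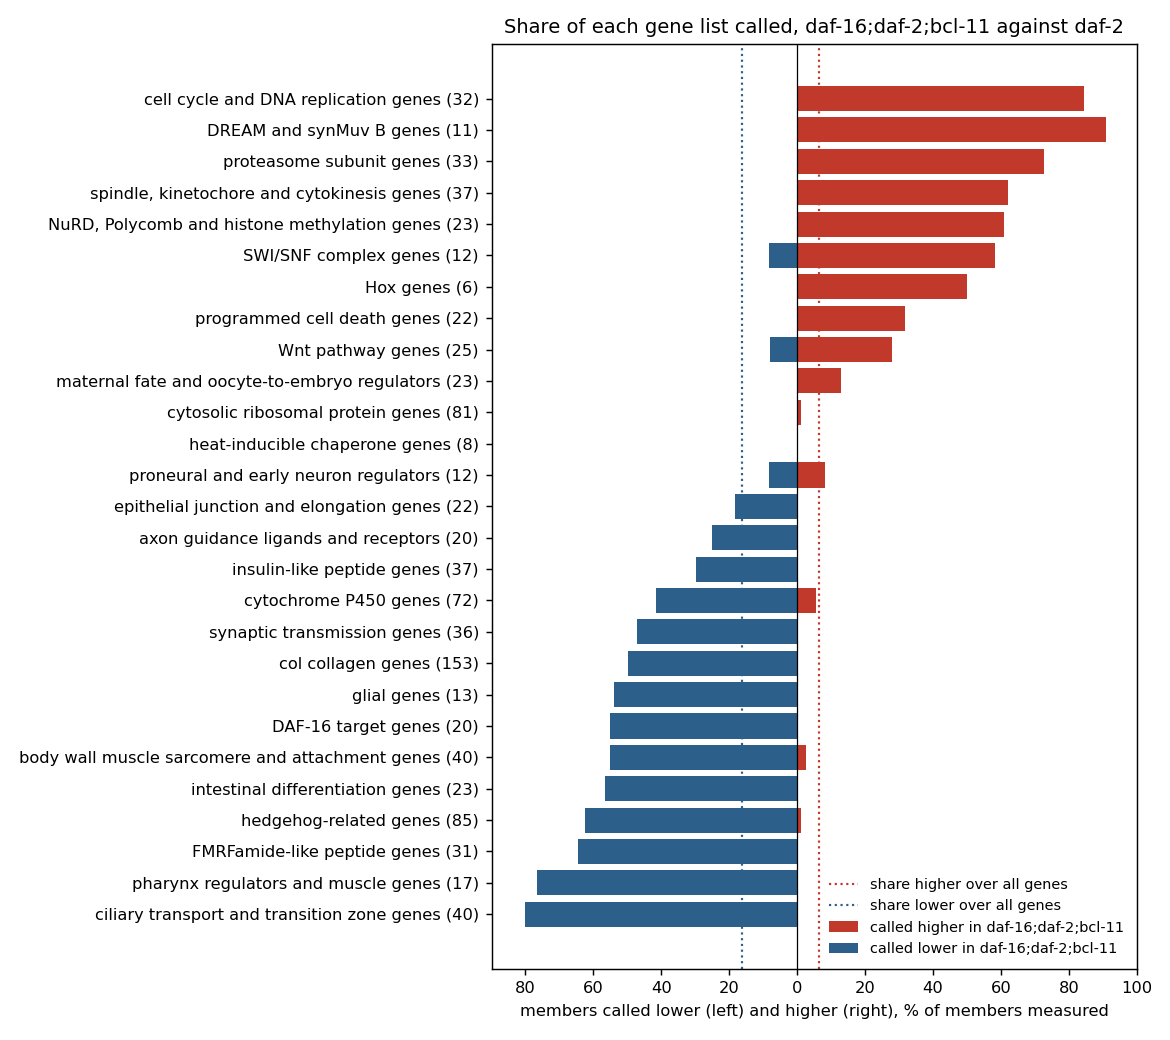
Percentage of measured members called higher (red, to the right) and lower (blue, to the left) in the triple mutant relative to daf-2 for 27 of the 59 gene lists, with the number measured in brackets and dotted lines at the shares over all genes (6.38% and 16.2%). Lists of dividing cells and chromatin extend to the right, up to 90.9% for DREAM and synMuv B genes, and lists of differentiated tissues extend to the left, up to 80.0% for ciliary genes.

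Maternal and germline genes had higher means in the triple mutant but few were called. All 23 genes of maternal fate and of the change from oocyte to embryo had a positive log2 fold change (0.27 to 1.17, median 0.76), and 3 of them were called higher (13%, against 6.38% of all genes). cey-2, a Y-box RNA-binding protein, had values of 12.1, 11.5, 11.7 and 13.1 in the triple mutant and of 10.7, 10.4, 10.9 and 11.8 in daf-2, which overlapped (1.17, standard error 0.33, limma Benjamini-Hochberg adjusted p = 0.0142). Batch 4 was the highest of both genotypes, and the call was lost without replicate 2 of daf-2. The oocyte maturation gene oma-1 had values of 11.1, 11.1, 11.0 and 12.9 in the triple mutant and of 11.0, 10.4, 10.8 and 12.3 in daf-2, and was not called (0.36, and -0.09 without replicate 4 of the triple mutant). The mean of the list was 12.8 and 11.9 in the batch 4 libraries of the triple mutant and daf-2, against 11.4 to 11.7 and 10.7 to 11.0 in the other batches. The list had 1 call without replicate 4 of the triple mutant, without replicate 4 of daf-2 12 were, without replicate 2 of daf-2 none was, 5 were without replicate 2 or 3 of the triple mutant, and with the batch as a block 8 were. All 23 were called higher with each library centred on its median.

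The eggshell and P granule lists behaved alike in this respect. Of 14 eggshell and egg activation genes 2 were called higher (14.3%, against 6.38% of all genes), both with overlapping libraries. They were cpg-1, a chitin-binding proteoglycan of the eggshell, at 1.21, and egg-5, a pseudophosphatase of egg activation, at 1.13. The cpg-1 call was lost without replicate 1 or 4 of the triple mutant and without replicate 1, 2 or 3 of daf-2. It was also lost with quantile normalization and in a model of only the 2 genotypes. The egg-5 call was lost in that model and without replicate 1 of daf-2. With the batch as a block 5 were called higher, as they were without replicate 4 of daf-2, while none was without replicate 1 of daf-2, and 1 was without replicate 1 or 4 of the triple mutant or without replicate 2 or 3 of daf-2. Of 13 P granule genes 3 were called higher (23.1%), none without replicate 1 of daf-2 and 1 without replicate 2 of the triple mutant. meg-3, a disordered scaffold protein of P granules, had values of 13.3, 13.4, 13.0 and 13.3 in the triple mutant and of 12.2, 12.6, 12.8 and 12.7 in daf-2 (0.66, standard error 0.14, limma Benjamini-Hochberg adjusted p = 0.00187), a call that was lost without replicate 1 of daf-2 and with quantile normalization. pgl-1, which encodes a core P granule protein, was not called (0.34, and -0.23 without replicate 4 of the triple mutant). puf-3 and mex-3, RNA-binding regulators of maternal transcripts, were called at 0.81 and 0.63 with overlapping libraries, and both calls were lost without replicate 4 of the triple mutant and without replicate 1 or 2 of daf-2, that of mex-3 also without 3 other libraries.

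Among regulators that act early in the embryo, some T-box and Hox genes rose and the others were not called. Of 14 T-box genes of the early embryo, 4 rose and none fell (28.6%, against 6.38% of all genes), and 4 rose without replicate 4 of the triple mutant. tbx-9, which acts in body morphogenesis together with its relative tbx-8, had values of 10.8, 10.7, 10.6 and 10.9 in the triple mutant and of 10.1, 9.40, 9.67 and 9.55 in daf-2 (1.10, standard error 0.17, limma Benjamini-Hochberg adjusted p = 0.000224). tbx-8 and tbx-11 rose by 0.85 and 0.81. Of 6 Hox genes, which pattern the body axis, 3 rose, also without that library: the anterior gene ceh-13 by 0.78 and the posterior genes nob-1 and php-3 by 0.99 and 0.73. nob-1 had values of 11.4, 11.4, 11.1 and 10.9 in the triple mutant, all above those of daf-2 at 9.98, 10.5, 10.7 and 9.68. The endoderm specification gene end-1 was called at 0.85 with overlapping libraries and was not called without replicate 4 of the triple mutant or replicate 2 of daf-2. The sdz, vet and pes genes, many of them known for their expression in the early embryo, depended more on single libraries. Of 46 measured 5 rose and 3 fell (10.9% and 6.52%, against 6.38% and 16.2% of all genes). Without replicate 4 of the triple mutant 1 rose, and without its replicate 3 there were 8 that rose. Without its replicate 1, or without replicate 2 or 4 of daf-2, 2 rose.

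**Figure D3:**
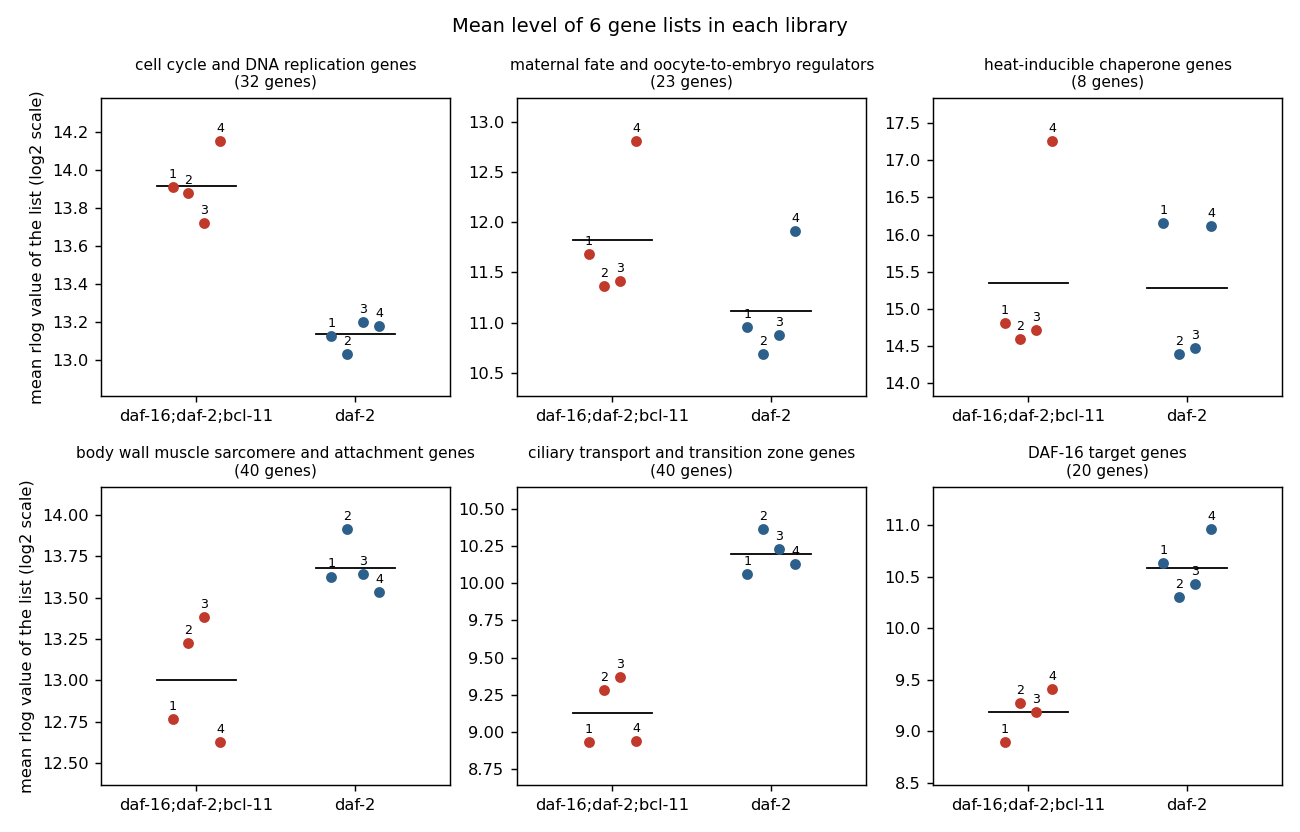
Mean rlog value (vertical axis, log2 scale) of 6 gene lists in each library of the triple mutant (red, left) and daf-2 (blue, right), with the replicate number, which is also the batch, above each point and a line at the mean of the 4 libraries. The genotypes do not overlap for cell cycle, muscle, ciliary and DAF-16 target genes, and do for maternal and heat-inducible genes, where replicate 4 of the triple mutant is highest.

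In the intestine, body wall muscle, pharynx and nervous system, many genes of differentiated cells were lower. Regulators were called in both directions for the endoderm and for neurons. Pharynx regulators were called only lower, and of the muscle fate regulators 1 of 6 was called, which fell, although their median was 0.25. In whole eggs, fewer cells of a type and less RNA per cell cannot be told apart. Of 23 intestinal differentiation genes, 13 fell and none rose (56.5%, against 16.2% of all genes), with a median of -0.70. pept-1, the peptide transporter of the gut lumen, had values of 9.23, 9.79, 10.4 and 9.95 in triple mutant eggs, against 11.6, 11.8, 11.5 and 11.4 in daf-2 eggs (-1.70, standard error 0.21, limma Benjamini-Hochberg adjusted p = 4.39e-05), and the metallothionein gene mtl-2 fell by 1.69. The gut esterase gene ges-1 had nearly the same level, at 10.5 ± 0.12 in the triple mutant and 10.5 ± 0.25 in daf-2 (SD, n = 4 each), which was a log2 fold change of -0.02 (0.52 with centring, 0.09 with quantile normalization). Of 7 regulators of the endoderm and intestine 2 rose and 1 fell (28.6% and 14.3%, against 6.38% and 16.2% of all genes). Among their GATA factors elt-7 rose by 0.68 and elt-2 was at 0.40 and not called, while elt-4 had values of 7.28, 7.20, 7.22 and 6.74 in the triple mutant, all below those of daf-2 at 8.21, 7.83, 7.62 and 7.92 (-0.78, standard error 0.18, limma Benjamini-Hochberg adjusted p = 0.00355). Quantile normalization lost the calls of elt-7 and elt-4, and centring lost that of elt-4. With centring, 4 of the 23 intestinal genes were called lower and 3 higher, and with quantile normalization 12 were called lower. Leaving a library out gave 9 to 17 called lower, 9 without replicate 2 of daf-2 and 17 without replicate 3 of the triple mutant.

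Of 40 genes for the sarcomere and its attachment in body wall muscle, 22 fell and 1 rose (55.0% lower, against 16.2% of all genes), with a median of -0.81. ttn-1, the nematode titin, had values of 14.0, 14.4, 14.5 and 14.4 in the triple mutant and of 15.9, 16.5, 15.9 and 15.9 in daf-2 (-1.73, standard error 0.16, limma Benjamini-Hochberg adjusted p = 6.85e-06). The troponin T gene tnt-3 fell by 1.71, and myo-3, which encodes the myosin heavy chain at the centre of the thick filament, fell by 1.22. hlh-1, the MyoD homolog that specifies muscle, was at 12.5, 12.5, 12.4 and 11.9 in the triple mutant and at 11.9, 11.9, 12.0 and 11.4 in daf-2, a change of 0.50 that did not pass the fold threshold. The 6 muscle fate regulators measured had a median of 0.25, and with centring 4 were called higher and none lower. On the deposited scale none rose and 1 fell (16.7%, against 16.2% of all genes). This was the T-box gene mls-1, with values of 7.06, 5.90, 6.63 and 6.38 in the triple mutant and of 7.38, 7.53, 7.51 and 7.82 in daf-2 (-1.07, standard error 0.22, limma Benjamini-Hochberg adjusted p = 0.0019), and centring and quantile normalization left it uncalled. The mean of the sarcomere list was 12.8, 13.2, 13.4 and 12.6 in the triple mutant, against 13.6, 13.9, 13.6 and 13.5 in daf-2, and its median change was -0.65, -0.79, -0.31 and -0.94 within batches 1 to 4. With centring 12 of the 40 were called lower and 10 higher, and with quantile normalization 26 were called lower.

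Of 17 genes of the pharynx, the feeding organ, 13 fell and none rose, with a median of -1.17, and 9 were called lower with centring. myo-1, a pharyngeal myosin heavy chain, had values of 9.14, 8.53, 9.85 and 8.90 in the triple mutant and of 11.1, 11.0, 10.7 and 10.6 in daf-2 (-1.76, standard error 0.23, limma Benjamini-Hochberg adjusted p = 7.49e-05), and the myosin heavy chain gene myo-5 fell by 1.98. pha-4, the FoxA factor that specifies the organ, was at 14.1 ± 0.20 in the triple mutant and 13.7 ± 0.24 in daf-2 (SD, n = 4 each) and was not called (0.35). Of the other 4 transcription factor genes of the list 3 fell, which are named outside the rule for named genes, after their values were seen. ceh-24 fell by 1.18, hlh-6 by 0.95 and ceh-22 by 0.81, the call of hlh-6 being lost with centring and that of ceh-22 with centring, in a model of only the 2 genotypes and without replicate 1 or 4 of the triple mutant or replicate 1 or 2 of daf-2.

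**Figure D4:**
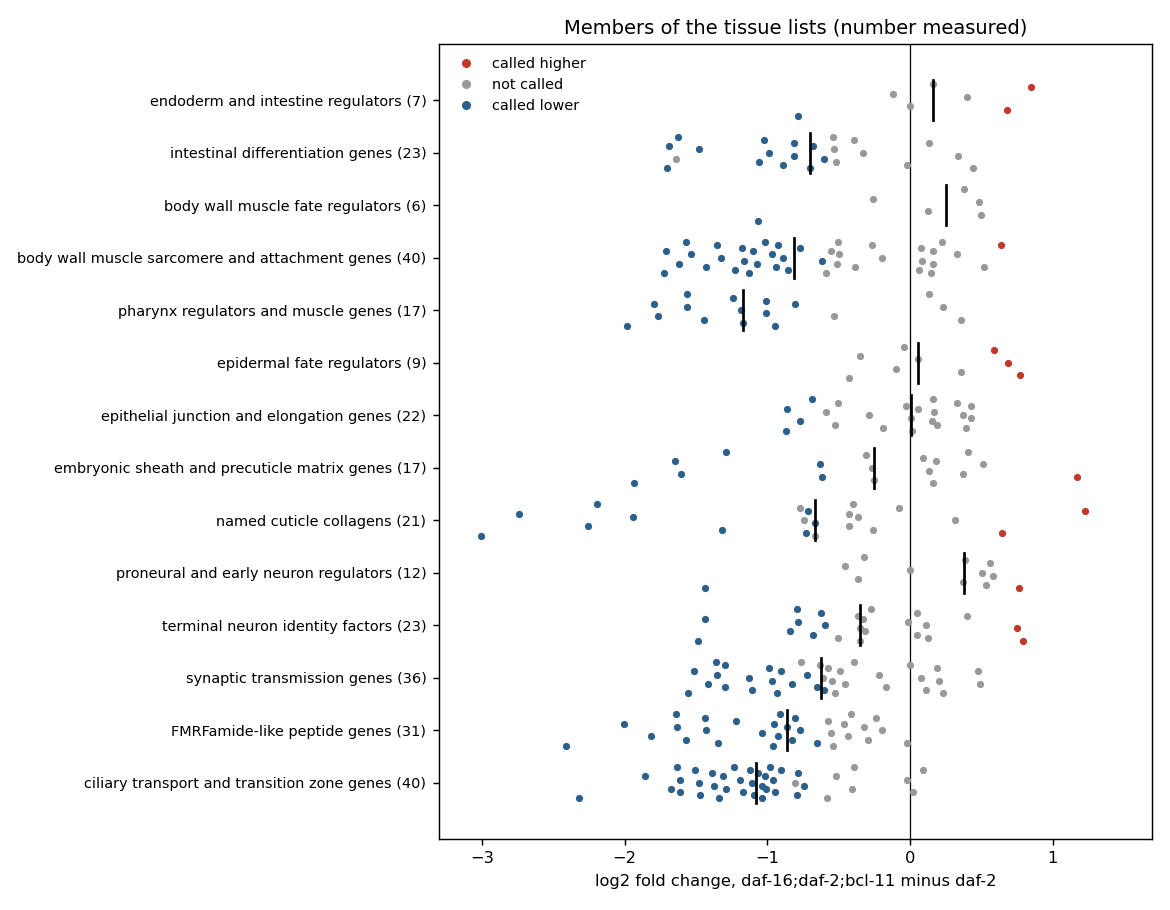
Log2 fold change of the triple mutant over daf-2 (horizontal axis) of every measured member of 14 tissue lists, 1 point per gene, red where called higher, grey where not called, blue where called lower, with a black line at the median of each list and the number measured in brackets. The regulator lists of the endoderm, body wall muscle, epidermis and early neurons lie on both sides of 0 with medians between 0.06 and 0.38, the terminal neuron identity factors have a median of -0.35, and the medians of the other lists lie between -1.17 for the pharynx and 0.01 for epithelial junctions. Centring each library on its median adds 0.54 to every change.

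In the epidermis some regulators rose, and genes of the matrix and cuticle were in part lower. Of 9 measured regulators of epidermal fate, 3 rose and none fell, with a median of 0.06 (-0.06 with quantile normalization): elt-1, the GATA factor at the start of epidermal fate, by 0.69, the engrailed homolog ceh-16 by 0.77 and the nuclear receptor gene nhr-25 by 0.59. The elt-1 and nhr-25 calls were lost with quantile normalization, and that of nhr-25 also without any of 4 libraries, replicates 2 and 3 of the triple mutant and replicates 1 and 4 of daf-2. Among 22 genes for epithelial junctions and elongation, 4 fell and none rose (18.2%, against 16.2% of all genes), with a median of 0.01 that was -0.30 with quantile normalization, by which 7 were called lower. Without replicate 2 of the triple mutant 7 fell, and with centring none was called lower and 10 higher. The junction gene ajm-1 was at -0.29 and was not called. noah-1, of the embryonic sheath and cuticle precursor, was at 0.19, while the cuticlin genes cut-6 and cut-3 of the same list of 17, in which 6 fell and 1 rose (4 lower and 8 higher with centring), fell by 1.93 and 1.65. cut-6 had values of 9.44, 10.2, 11.2 and 10.5 in the triple mutant, all below those of daf-2 at 12.0, 12.6, 12.3 and 12.3.

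Cuticle collagens were lower in larger numbers. Of 153 col genes, 76 fell and none rose (49.7%, against 16.2% of all genes), with a median of -1.02 (57 lower and 16 higher with centring, 60 lower and 4 higher with quantile normalization). col-146 had values of 5.61, 5.50, 6.50 and 5.14 in triple mutant eggs, against 10.4, 9.61, 9.13 and 9.29 in daf-2 eggs (-3.93, standard error 0.33, limma Benjamini-Hochberg adjusted p = 2.9e-06), and col-108 and col-92 fell by 3.77 and 3.36. The named collagens, known from worms of abnormal body shape, fell in 9 of 21 and rose in 2, and fell in 5 without replicate 4 of the triple mutant and in 5 with centring. dpy-7, which is expressed in the embryonic epidermis, was not called (-0.43, and 0.11 with centring). dpy-4 had values of 3.76, 5.20, 4.18 and 5.49 in the triple mutant and of 7.55, 6.33, 9.69 and 7.07 in daf-2 (-3.0, standard error 0.79, limma Benjamini-Hochberg adjusted p = 0.00921). Replicate 3 of daf-2 was the highest of the daf-2 libraries for dpy-4, dpy-5 and dpy-13, and without it the calls of dpy-4 and dpy-5 held and that of dpy-13 was lost, as it was without replicate 1 or 4 of the triple mutant.

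Among other secreted and membrane proteins of the epidermis, hedgehog-related genes fell in 53 of 85 and rose in 1 (62.4% lower), with a median of -0.96, and 39 were called lower with centring and 44 with quantile normalization. grd-2, of the groundhog class of hedgehog-related ligands, had values of 3.99, 5.19, 4.01 and 4.53 in the triple mutant, against 7.69, 7.77, 7.49 and 7.88 in daf-2 (-3.27, standard error 0.30, limma Benjamini-Hochberg adjusted p = 5.36e-06). The ground-like gene grl-23 fell by 2.92 and the patched-related gene ptr-8 by 2.11. The ptr stem had the largest share of lower genes of all families, 18 of 24 (75.0%, against 16.2% of all genes). Of 36 measured astacin protease genes 17 fell and none rose, but with quantile normalization 7 were called lower and 1 higher, and with centring 8 lower and 5 higher. hch-1, the protease that lets larvae hatch, was at 15.6 ± 0.40 in the triple mutant and 15.7 ± 0.08 in daf-2 (SD, n = 4 each) and was not called (-0.14, and 0.39 with centring). Transthyretin-related genes (stem ttr) fell in 36 of 58 (62.1%, against 16.2% of all genes), with ttr-26 at -3.63.

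In the nervous system, many genes for cilia, peptides and synapses were lower. Ciliary genes had the largest share of lower genes of the 59 lists. Of 40 measured genes for transport within cilia and the transition zone, 32 fell and none rose (80.0%), with a median of -1.08, and 17 were called lower with centring and 30 with quantile normalization. dyf-6, a component of intraflagellar transport, had values of 7.01, 6.72, 7.65 and 7.01 in triple mutant eggs, against 9.42, 9.50, 9.23 and 9.50 in daf-2 eggs (-2.32, standard error 0.20, limma Benjamini-Hochberg adjusted p = 3.89e-06). bbs-8, of the complex lost in Bardet-Biedl syndrome, fell by 1.86 and the transport gene che-11 by 1.67. daf-19, the RFX factor that turns on ciliary genes, was at 12.4 ± 0.33 in the triple mutant and 12.9 ± 0.09 in daf-2 (SD, n = 4 each). Its change of -0.52 (0.02 with centring) did not pass the fold threshold, although the libraries did not overlap. The median change of the ciliary list was -1.19, -1.04, -0.86 and -1.27 within batches 1 to 4.

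Of 31 genes for FMRFamide-like neuropeptides, 20 fell and none rose, with a median of -0.86, and all 31 had a negative log2 fold change (10 lower with centring, 11 with quantile normalization). flp-11, a peptide of the sleep neuron RIS, had values of 6.53, 7.33, 8.51 and 7.74 in the triple mutant and of 9.83, 10.1, 9.69 and 10.2 in daf-2 (-2.41, standard error 0.32, limma Benjamini-Hochberg adjusted p = 7.86e-05), and flp-27 and flp-1 fell by 2.00 and 1.81. Of 36 genes for synaptic transmission 17 fell and none rose (47.2%, against 16.2% of all genes). unc-13, which primes synaptic vesicles, had values of 9.56, 9.16, 9.76 and 9.92 in the triple mutant, all below those of daf-2 at 10.9, 11.2, 11.0 and 11.3 (-1.52, standard error 0.17, limma Benjamini-Hochberg adjusted p = 2.31e-05). egl-21, a carboxypeptidase that trims neuropeptides, fell by 1.56 and unc-25, which makes GABA, by 1.41. With centring 8 of the 36 synaptic genes were called lower and 7 higher, and with quantile normalization 11 lower and 1 higher.

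Neuronal regulators were mixed. Of 12 proneural and early neuron regulators, 1 rose and 1 fell, which is 8.33% each, against 6.38% and 16.2% of all genes. The one that rose was hlh-2, the common partner of basic helix-loop-helix factors, by 0.76, a call that quantile normalization lost. hlh-14, a proneural gene of the achaete-scute class, was at 0.50, under the fold threshold, and hlh-13, another basic helix-loop-helix gene, fell by 1.44. Of 23 terminal identity factors 8 fell and 2 rose (34.8% lower, against 16.2% of all genes), with a median of -0.35. With centring the median was 0.19, with 2 called lower and 7 higher, and with quantile normalization 6 were called lower and 1 higher, and 4 fell without replicate 1 of the triple mutant or without replicate 2 of daf-2. mec-3, the LIM homeobox gene of touch neurons, had values of 7.30, 6.74, 7.29 and 7.22 in the triple mutant and of 9.02, 8.75, 8.25 and 8.48 in daf-2 (-1.49, standard error 0.21, limma Benjamini-Hochberg adjusted p = 0.000118), whereas unc-3, of cholinergic motor neurons, was not called (-0.50, and 0.04 with centring). The netrin gene unc-6 was not called (0.09, and -0.18 with quantile normalization), and 5 of 20 axon guidance genes fell, or 1 in 4 where 16.2% of all genes did, with 3 lower and 8 higher by centring. Of 13 measured glial genes 7 fell and none rose (53.8%, against 16.2% of all genes, with 3 lower and 3 higher by centring), among them fig-1 and daf-6 of the amphid sheath, which ensheathes the head sensory neurons, by 1.59 and 1.34, and hlh-17 by 0.98, which centring and quantile normalization left uncalled.

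The insulin and dauer pathways were examined by their roles. Of 21 genes for the receptor cascade and the partners of DAF-16, 2 rose and 2 fell (9.52% each, against 6.38% and 16.2% of all genes). Those that fell were daf-16 itself and jnk-1, a kinase that phosphorylates DAF-16 (-1.43). Among 20 genes known as targets of DAF-16, 11 fell and none rose (55.0%, against 16.2% of all genes), with a median of -1.26. With quantile normalization 11 were called lower, and with centring 10 were, with 3 higher. The metallothionein gene mtl-1 had values of 6.65, 6.84, 7.03 and 7.33 in triple mutant eggs, against 11.1, 10.3, 10.4 and 12.2 in daf-2 eggs (-4.03, standard error 0.34, limma Benjamini-Hochberg adjusted p = 2.79e-06). sod-3, the mitochondrial superoxide dismutase that is widely used as a reporter of DAF-16, had values of 3.83, 4.95, 4.14 and 5.18 in the triple mutant and of 7.74, 8.20, 7.99 and 8.68 in daf-2 (-3.63, standard error 0.28, limma Benjamini-Hochberg adjusted p = 1.61e-06). hsp-12.6, a small heat shock protein gene, fell by 3.43, to 3.88, 4.36, 3.80 and 4.90 in the triple mutant, against widely spread values of 9.57, 6.36, 6.38 and 8.34 in daf-2. The target list did not overlap between genotypes, with means of 8.9 to 9.4 in triple mutant libraries and of 10.3 to 11.0 in daf-2 libraries.

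Of the insulin-like peptide genes, which encode ligands of DAF-2, 11 of 37 measured fell and none rose (29.7%, against 16.2% of all genes), with a median of -0.20 (0.33 with centring). Quantile normalization called 5 lower and 2 higher, and centring 5 lower and 5 higher. ins-6, a ligand that acts against dauer entry, had values of 4.75, 5.34, 6.45 and 6.12 in the triple mutant, against 9.44, 9.56, 9.13 and 9.27 in daf-2 (-3.69, standard error 0.30, limma Benjamini-Hochberg adjusted p = 2.26e-06). ins-11 fell by 3.97, to 4.62, 6.06, 5.98 and 5.89 in the triple mutant, against 9.82, 9.20, 8.78 and 10.7 in daf-2. daf-28, another ligand of this pathway, was near the bottom of the scale in both genotypes, at 1.62 ± 0.11 in the triple mutant and 1.68 ± 0.13 in daf-2 (SD, n = 4 each). A list of 14 dauer genes held those of the TGF-beta and steroid branches together with the guanylyl cyclase gene daf-11. Of these 14 genes 4 fell and none rose (28.6%, against 16.2% of all genes, and 2 lower and 6 higher with centring). They included daf-7, the TGF-beta ligand made in sensory neurons, with values of 7.75, 7.68, 8.18 and 5.48 in the triple mutant and of 9.82, 10.1, 9.79 and 9.96 in daf-2 (-2.63, standard error 0.50, limma Benjamini-Hochberg adjusted p = 0.00102). daf-11, a guanylyl cyclase of sensory neurons, fell by 3.22 with values of 5.32 to 5.94 in the triple mutant and of 8.35 to 9.14 in daf-2. The receptor gene daf-12, at which steroid signals converge, fell by 1.08, which centring left uncalled.

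**Figure D5:**
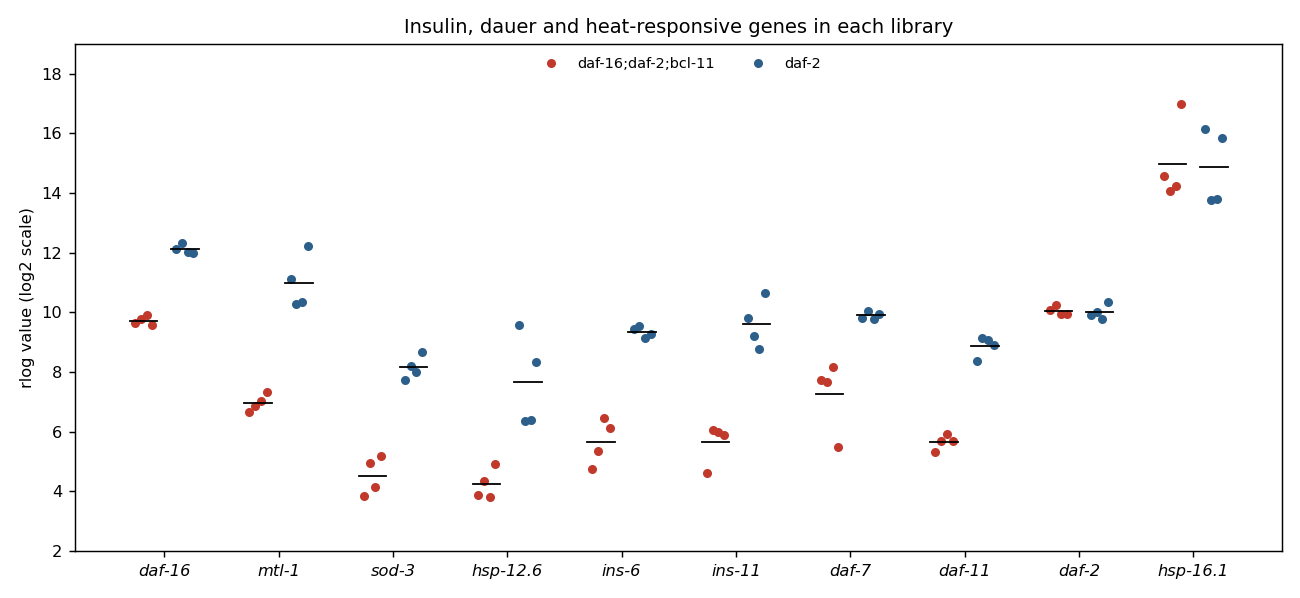
rlog value (vertical axis, log2 scale) of 10 genes of the insulin, dauer and heat shock responses in each library of the triple mutant (red, left of each pair) and daf-2 (blue, right), with a line at the mean of the 4 libraries. daf-16 and the 7 genes beside it do not overlap between the genotypes, while daf-2 and hsp-16.1 do.

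Heat-inducible chaperones did not differ in mean between the genotypes and varied between libraries. None of 8 measured genes was called by limma with Benjamini-Hochberg adjustment, also not with a library left out or with the batch as a block, and 1 was called higher with centring. The mean of the list was 14.8, 14.6, 14.7 and 17.3 in the triple mutant, against 16.2, 14.4, 14.5 and 16.1 in daf-2. hsp-16.1, whose near-identical copies share reads, had values of 14.6, 14.1, 14.2 and 17.0 in the triple mutant and of 16.2, 13.8, 13.8 and 15.8 in daf-2. The libraries with high values, replicate 4 of the triple mutant and replicates 1 and 4 of daf-2, were those with high scores on the second principal component. The log2 fold change of hsp-16.1 was 0.09, and -0.58 without replicate 4 of the triple mutant. Of 38 constitutive and organelle chaperone genes, 5 rose and 2 fell (13.2% and 5.26%, against 6.38% and 16.2% of all genes). In the class with the highest means, where the list's median level of 13.6 lay, the shares were 19.8% and 6.51%. Without replicate 4 of the triple mutant 12 rose, and 3 rose without its replicate 2 or without replicate 1 of daf-2. With quantile normalization 1 rose. The chaperonin subunit gene cct-8 rose by 0.92, hsp-1 (Hsc70) was at 0.54 and not called, and the small heat shock gene hsp-43 fell by 1.04, which centring left uncalled.

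Among signaling pathways of the embryo, 7 of 25 Wnt pathway genes rose and 2 fell (28.0% higher and 8.00% lower, against 6.38% and 16.2% of all genes), with 2 higher and 1 lower by quantile normalization. The list's median level of 12.6 lay in the class with the highest means, where 19.8% of genes were called higher and 6.51% lower. The Wnt ligand gene mom-2 was called at 0.60 with overlapping libraries, and the call was lost without replicate 4 of the triple mutant or without replicate 1, 2 or 3 of daf-2. The β-catenin gene bar-1 fell by 0.77, which centring and quantile normalization left uncalled. Of 25 genes of the Notch pathway and REF-1 family 6 rose and 1 fell (24.0% higher). lag-2, a Notch ligand, had values of 9.86, 10.4, 9.92 and 10.4 in the triple mutant and of 8.86, 9.52, 9.30 and 9.11 in daf-2 (0.95, standard error 0.18, limma Benjamini-Hochberg adjusted p = 0.00107), and the receptor gene lin-12 was at 0.53, under the fold threshold. Of 22 programmed cell death genes 7 rose and none fell (31.8%), counts that were equal with quantile normalization. Those that rose included crn-1, the FEN-1 nuclease of DNA degradation and replication, at 1.01, and ced-9, the Bcl-2 homolog that holds cell death back, at 0.90, while egl-1, the trigger of cell death, was not called (0.30).

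On the deposited scale, metabolic genes changed singly more than as groups, while centring called most respiratory chain and glycolysis genes higher. The Δ9 desaturase genes moved apart, with fat-7 at 6.04, 5.81, 5.02 and 5.44 in the triple mutant and at 4.44, 4.33, 4.45 and 4.12 in daf-2 (1.24, standard error 0.21, limma Benjamini-Hochberg adjusted p = 0.00047). fat-5 had values of 5.14, 5.90, 5.46 and 5.46 in the triple mutant and of 6.83, 7.07, 7.66 and 7.73 in daf-2 (-1.83, standard error 0.27, limma Benjamini-Hochberg adjusted p = 0.000152). fat-7 is close in sequence to other desaturase genes, with which reads could be shared. Of the 16 desaturase and elongase genes measured 2 rose and 3 fell (12.5% and 18.8%, against 6.38% and 16.2% of all genes). With centring 7 were called higher and 2 lower. Of 36 nuclear genes for the respiratory chain 1 was called higher (2.78%, against 6.38% of all genes), and with centring 32 were. Of 19 glycolysis genes 1 rose and 1 fell (5.26% each, against 6.38% and 16.2% of all genes), and with centring 13 were called higher. The gene that rose without centring was gpd-4, a glyceraldehyde-3-phosphate dehydrogenase with near-identical copies, at 1.16. Its value in replicate 4 of the triple mutant was 13.2, against a mean of 11.8 in the other libraries of that genotype. Of 8 trehalose genes 3 fell (37.5%, against 16.2% of all genes), and with centring 2 were called lower and 4 higher. The trehalase gene tre-5 was among those that fell (-1.55), while the trehalose synthase gene tps-1 was not called (-0.33, and 0.21 with centring).

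Genes for detoxification were lower in part, at levels of expression where decreases were common. Other large families stood nearer to the share of all genes or below it. Of 72 cytochrome P450 genes 30 fell and 4 rose (41.7% lower, against 16.2% of all genes), with cyp-37B1 at -2.64. Of 43 glutathione S-transferase genes 14 fell (32.6%) and 2 rose, with gst-15 at -2.24. Of 66 UDP-glucuronosyltransferase genes 20 fell (30.3%) and 2 rose, with ugt-56 at -2.26. The median levels of these lists were 6.93, 6.76 and 8.73, in the order given. In the expression classes with those levels 36.8%, 36.8% and 29.9% of genes were called lower. The medians of these lists, -0.51, -0.40 and -0.14, were positive with centring, at 0.02, 0.14 and 0.40. With quantile normalization 21, 8 and 13 of them were called lower and 7, 4 and 5 higher, and with centring 16, 8 and 12 lower and 15, 9 and 19 higher. C-type lectin genes fell in 43 of 218 (19.7%, against 16.2% of all genes), with 23 lower and 13 higher by quantile normalization and 25 lower and 58 higher by centring. Among those that fell was clec-17, at 7.63, 7.90, 8.98 and 8.33 in the triple mutant and at 10.5, 10.8, 10.6 and 10.2 in daf-2. Nuclear hormone receptor genes fell in 64 of 265 (24.2%) and rose in 4, but quantile normalization called 31 lower and 18 higher, and centring turned the balance, with 21 lower and 67 higher. Chemoreceptor genes, whose mean was 1.95 to 2.01 in the triple mutant libraries and 2.06 to 2.11 in the daf-2 libraries, fell in 60 of 1069 (5.61%, below the 16.2% of all genes) and rose in 11 (1.03%). Their balance turned as well, with 24 lower and 28 higher by quantile normalization and 14 lower and 218 higher by centring.

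The remaining lists had few calls or calls in both directions. Of 317 F-box genes 33 fell and 25 rose (10.4% lower and 7.89% higher, against 16.2% and 6.38% of all genes). By quantile normalization 13 were lower and 44 higher, and by centring 12 were lower and 140 higher. The gene fbxa-24 fell by 2.67. Of 151 long intergenic noncoding RNA genes 12 fell and 2 rose (7.95% and 1.32%, both below the shares of all genes). By quantile normalization 3 were lower and 17 higher, and by centring 2 were lower and 44 higher. linc-34 had values of 6.07, 5.86, 6.21 and 5.80 in the triple mutant and of 7.93, 7.59, 7.56 and 7.92 in daf-2 (-1.77, standard error 0.18, limma Benjamini-Hochberg adjusted p = 1.19e-05). Of 72 histone genes 6 rose and 1 fell (8.33% and 1.39%, against 6.38% and 16.2% of all genes), and with quantile normalization 21 rose. With a library left out 3 to 8 histone genes rose, and 3 did without replicate 4 of the triple mutant. Of 27 Argonaute and small RNA genes 5 rose and none fell (18.5%, against 6.38% of all genes), among them alg-2, a microRNA Argonaute, by 0.80. The list's median level of 11.8 lay in the class with the highest means, where 19.8% of genes were called higher. With a library left out 2 to 6 rose, and 3 did without replicate 4 of the triple mutant. With quantile normalization 1 was called higher and 1 lower. Tubulin genes fell in 5 of 13 and rose in 3 (38.5% and 23.1%, against 16.2% and 6.38% of all genes), with tbb-6, a β-tubulin, at -2.40. No tubulin gene rose without replicate 2 of the triple mutant or without replicate 1 of daf-2, and 5 rose without replicate 1 of the triple mutant. With quantile normalization 3 were called lower and none higher.

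The triple mutant libraries were also compared with those labelled daf-2;bcl-11 in the same model, which tests whether a difference from daf-2 was particular to the genotype with daf-16(mu86). Of 25122 genes 3 were called (0.0119%, limma with Benjamini-Hochberg adjustment), and 1514 had an unadjusted p-value below 0.05. klp-4, a kinesin of axonal transport, had a mean of 8.84 in the triple mutant and of 12.4 in libraries with the daf-2;bcl-11 label (-3.60, with a Benjamini-Hochberg adjusted p of 4.64e-07 in limma), and F56E3.5, a noncoding RNA gene beside klp-4 on chromosome X, differed by 1.56. saeg-2 differed by 1.32. None of the 3 was called between the triple mutant and daf-2, where they were at -0.38, -0.19 and -0.07. For the genes with large decreases the means lay close together, such as 4.43 and 4.59 for icmt-1, 3.71 and 3.65 for F49C12.2, 6.96 and 7.02 for mtl-1 and 5.66 and 5.54 for ins-6, in the triple mutant and in libraries with the daf-2;bcl-11 label. No gene called between the triple mutant and daf-2 that is named here was thus shown to differ between the mutant genotypes. As the libraries labelled daf-2;bcl-11 held as little daf-16 as those of the triple mutant, this comparison rests on a label that may be wrong.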

How the data were processed

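RNA was measured in 12 libraries of C. elegans eggs, 4 for each of 3 genotypes. Per the labels and the study's methods, the authors made libraries by Smart-seq2, which does not keep the strand, and used bcl2fastq 2.20 and kallisto 048.0 (as the submitters' processing notes give it) with WBcel235, and the deposited values are regularized-log (rlog) counts on the log2 scale from these libraries together. Reads per library cannot be recovered from them, so the depth is unknown and no counting interval is given. No pair of libraries was identical.

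The rlog values of 25122 genes were fitted with limma 3.58.1 (R 4.3.3; empirical Bayes with a trend on the mean) over all 12 libraries, without a block, and p-values were adjusted over all genes by the Benjamini-Hochberg method. Adjusted p below 0.05 and an absolute log2 fold change above 0.585 made a call. Tables and plots were made with Python 3.11.15, pandas 2.3.3, numpy 2.4.6 and matplotlib 3.10.9. Coordinates are from the Ensembl 115 annotation of WBcel235, in which all 25122 identifiers were found, and 23471 had a symbol in the name table. The fit was tested on simulated data.

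The labels give the replicate number as a batch, which pairs the samples: deviations from the genotype means of same-numbered libraries correlated at 0.04, 0.28, 0.16 and 0.38 for numbers 1 to 4. Alternatives were the batch as a block, centring each library on its median, quantile normalization, no trend, only the 2 genotypes, a minimum mean of 10 normalized counts, fold change thresholds of 0 and 1, and each of the 8 libraries left out. Named genes were the 3 targeted genes, the 10 largest increases and decreases among called genes without overlap, the first measured member and up to 3 called members with the largest changes of each of the 59 lists, the leading members of gene families with the largest shares, and genes called between the mutant genotypes. The 3 genes ceh-22, hlh-6 and ceh-24 were added outside it. Genes and lists were chosen with earlier results of these data known. Promoter sequences were not used here.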

Additional observations from a re-analysis of the deposited data

Results flagged for a closer look

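In 21 of 300 sets of 4 libraries examined, 1 for each named gene and genotype, a library lay far from the other 3 by Dixon's criterion. Chance gives about 1 in 20, or 15 of 300. Replicate 4 of the triple mutant was the high library for the maternal or germline genes oma-1 (12.9, against a mean of 11.1 in the others), mex-3 (12.9, against 12.0), egg-5 (11.4, against 10.3) and pgl-1 (12.7, against 10.5), and for the glycolysis gene gpd-4 (13.2, against 11.8). Replicate 1 of the triple mutant was high for Y32B12B.2 (11.8, against 11.6) and low for the titin gene ttn-1 (14.0, against 14.4) and the insulin-like gene ins-11 (4.62, against 5.98), and replicate 2 was low for mec-3 (6.74, against 7.27). Replicate 4 of the triple mutant was also low for elt-4 (6.74, against 7.23) and high for tbb-6 (4.58, against 3.59).

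Among daf-2 libraries, replicate 4 was high for cnc-11 (11.9, against 10.2) and low for ceh-13 (10.7, against 11.3), hlh-1 (11.4, against 11.9) and hda-1 (13.4, against 13.7). Replicate 1 of daf-2 was low for F53E10.5 (4.90, against 6.74), cyp-37B1 (8.44, against 9.64) and F56E3.5 (5.30, against 5.93). Replicate 2 of daf-2 was low for hlh-6 (9.78, against 9.95) and high for ttn-1 (16.5, against 15.9) and replicate 3 for the collagen gene dpy-13 (9.65, against 7.10).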

How the results depend on the processing

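Counts of genes called depended mainly on scaling and on the fold threshold. With each library centred on its median, 11465 genes were called, 9434 higher and 2031 lower in the triple mutant, and with quantile normalization 2641 were lower. At a fold change threshold of 1 there were 2629 calls, 90 higher and 2539 lower, and at 0 there were 3329 higher. Leaving out 1 library at a time gave 5283 to 6163 calls, 1472 to 1940 higher and 3752 to 4223 lower. With the replicate number as a block (the batch pairing of the labels), 5769 genes were called, 1660 higher and 4109 lower. Among single genes the block changed no call of the 150 named. Among the 59 lists it moved a count by more than 1.5 times for maternal genes (8 called higher, against 3), eggshell genes (5, against 2) and C-type lectins (5 called higher, against 3). Centring turned the sign of ges-1 (0.52), ajm-1 (0.25), dpy-7 (0.11), hch-1 (0.39), unc-3 (0.037), daf-19 (0.023), daf-28 (0.49), tps-1 (0.21), klp-4 (0.16), saeg-2 (0.47) and F56E3.5 (0.35), and quantile normalization that of ges-1 (0.091), noah-1 (-0.12), unc-6 (-0.18), hsp-16.1 (-0.21) and F56E3.5 (0.31), none of which was called. With a library left out, the sign of 7 uncalled genes was not fixed: daf-2 (-0.031 to 0.16), oma-1 (-0.088 to 0.76), pgl-1 (-0.23 to 0.66), ges-1 (-0.12 to 0.057), unc-6 (-0.031 to 0.21), daf-28 (-0.10 to 0.012) and hsp-16.1 (-0.58 to 0.51). Of the 150 named genes, calls were lost for 10 with centring, 23 with quantile normalization, 8 in a model of only the 2 genotypes, 2 without a trend and 44 at a threshold of 1. The cause was not tested. The rlog scale understates changes of weakly expressed genes, and the depth behind each value is unknown.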
